A study of Mus musculus with 9 samples.

Results

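Pxylp1, Fam204a, Trdmt1, Syne2, Tspyl4 and Ip6k2 are 6 of the 18193 genes that the array measured in mouse liver after early-life pulsed antibiotic treatment (PAT). They were chosen by their measured values, each for a higher level of 1 probe set with amoxicillin and with tylosin than in untreated mice. All 16 probe sets annotated to these genes alone were followed, the 6 that led to the choice (the named probe sets) and 10 others, to see how far each difference extended over probe sets and over arrays. The differences of these genes from control are therefore a description. Where a probe set of theirs is said to meet the thresholds used for all probe sets, this tells where its value lay and supports nothing. Genes of related function and chromosomal neighbours, which had no part in the choice of the 6 genes, were tested. The lists of related genes were drawn up with earlier results of these data known, so their counts are not independent evidence.

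Liver RNA of female C57BL/6J mice was hybridized to Affymetrix mouse expression arrays, with 3 arrays for control mice that received no antibiotic, 3 for amoxicillin and 3 for tylosin. Amoxicillin trihydrate (0.167 mg per ml, for 25 mg per kg body mass a day) or tylosin tartrate (0.333 mg per ml, for 50 mg per kg a day) was given in the drinking water at days 10 to 15, 28 to 31 and 37 to 40 of life, and mice of all groups ate high-fat chow after the courses. Livers were taken at 22 weeks by the protocol and at 24 weeks by the sample labels, long after the last dose. Litter mates shared a treatment and a cage, and the labels do not give the litter, cage or processing batch of an array, so that the part of these in any difference between groups cannot be told apart from treatment. The labels number the arrays within a group without saying that they come from separate mice, and p-values here measure the spread between these arrays, which may be technical.

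The 6 genes belong to unrelated processes. Pxylp1 is a phosphatase of the Golgi that removes the phosphate from xylose in the linker joining glycosaminoglycan chains to proteoglycan core proteins, a phosphate that the kinase Fam20b adds. Trdmt1, also called Dnmt2, resembles a DNA methyltransferase but methylates cytosine in transfer RNA. Syne2 encodes the giant protein nesprin-2 of the outer nuclear membrane, which with SUN proteins forms the LINC complex that ties the nucleus to the cytoskeleton. Tspyl4 belongs to the nucleosome assembly protein family, Ip6k2 is a kinase that adds a pyrophosphate to inositol hexakisphosphate, and the function of Fam204a is little known.

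The genes lie on 5 chromosomes. In the RefSeq annotation of build GRCm38.p6, Pxylp1 spans chr9:96823336-96892688, Ip6k2 chr9:108783764-108806333, Fam204a chr19:60197148-60226705, Trdmt1 chr2:13504879-13544797, Syne2 chr12:75818318-76110928 and Tspyl4 chr10:34297421-34301320. Syne2 is the longest, at 292611 bases, and Tspyl4 the shortest, at 3900 bases. Where each probe set lies within its gene is not given in the sources used. The suffix x in 1456735_x_at of Pxylp1 is the manufacturer's mark of a set with probes that can match other transcripts, and the suffix s in 1427982_s_at of Syne2 a set whose probes match several transcripts; the share of signal from other transcripts was not tested.

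The promoters of these genes, from 250 bases before to 50 bases after an annotated start, are shown so that the start regions can be read side by side. Each gene was chosen for a rise with both antibiotics and not for moving together with the others. RefSeq sequences (GRCm38.p6) were at hand for 5 of the 6 genes. They are written 5′ to 3′ on the strand of the gene, with capitals for any match on either strand to 1 of 5 motifs. These were the GC box, spelled GGGCGG, the CCAAT box, the cyclic AMP response element, spelled TGACGTCA, the TATA box, spelled TATAAA, and the E-box, spelled CACGTG. The motifs were picked after the sequences had been seen.
Pxylp1, chr9:96889425-96889724, minus strand: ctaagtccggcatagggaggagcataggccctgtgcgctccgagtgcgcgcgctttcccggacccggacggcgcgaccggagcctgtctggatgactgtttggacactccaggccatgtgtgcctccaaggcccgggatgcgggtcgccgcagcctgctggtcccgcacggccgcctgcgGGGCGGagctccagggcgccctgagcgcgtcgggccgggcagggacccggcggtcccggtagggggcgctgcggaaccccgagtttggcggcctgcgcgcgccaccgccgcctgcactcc
Trdmt1, chr2:13544615-13544914, minus strand: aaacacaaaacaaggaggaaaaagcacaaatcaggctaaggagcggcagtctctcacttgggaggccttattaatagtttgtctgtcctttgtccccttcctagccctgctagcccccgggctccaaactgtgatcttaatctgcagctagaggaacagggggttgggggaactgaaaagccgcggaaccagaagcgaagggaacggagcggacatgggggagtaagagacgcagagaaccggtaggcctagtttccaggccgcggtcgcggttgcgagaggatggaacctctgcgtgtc
Syne2, chr12:75818068-75818367, plus strand: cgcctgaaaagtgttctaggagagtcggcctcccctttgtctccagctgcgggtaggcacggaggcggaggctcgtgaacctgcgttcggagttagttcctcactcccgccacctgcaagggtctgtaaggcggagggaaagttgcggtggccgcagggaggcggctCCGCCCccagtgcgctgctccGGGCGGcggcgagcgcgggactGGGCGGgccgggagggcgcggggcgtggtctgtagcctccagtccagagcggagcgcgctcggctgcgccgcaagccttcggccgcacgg
Tspyl4, chr10:34297171-34297470, plus strand: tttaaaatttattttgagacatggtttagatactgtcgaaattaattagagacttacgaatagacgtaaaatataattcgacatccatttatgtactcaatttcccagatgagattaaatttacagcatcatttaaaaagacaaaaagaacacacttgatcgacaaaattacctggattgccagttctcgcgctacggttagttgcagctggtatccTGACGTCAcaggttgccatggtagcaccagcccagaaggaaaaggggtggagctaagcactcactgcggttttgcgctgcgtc
Ip6k2, chr9:108783562-108783861, plus strand: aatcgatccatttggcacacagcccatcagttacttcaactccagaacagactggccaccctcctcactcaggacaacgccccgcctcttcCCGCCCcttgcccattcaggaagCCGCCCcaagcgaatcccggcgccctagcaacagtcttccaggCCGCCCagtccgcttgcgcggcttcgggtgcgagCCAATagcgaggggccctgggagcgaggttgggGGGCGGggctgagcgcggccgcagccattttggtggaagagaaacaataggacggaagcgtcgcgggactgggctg

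No motif searched was found in all 5 genes. The GC box occurred in Pxylp1 (1 match), Syne2 (3 matches) and Ip6k2 (4 matches at the start shown and 1 at its other annotated start), against 35.7% of the 32851 promoters of the table. The cyclic AMP response element, held by 1.79% of all promoters, occurred only in Tspyl4 among the 5 genes. The CCAAT box occurred at the Ip6k2 start shown (37.4% of all promoters), and the TATA box (13.6%) and the E-box (7.15%) in none of the 5 genes. GC content ranged widely, from 40% in Tspyl4 and 55.3% in Trdmt1 to 71% in Syne2 and 74.3% in Pxylp1, against a median of 52.7% over all promoters. A match is a description of letters and not evidence of binding.

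Values below are log2 expression values as deposited after robust multi-array averaging (RMA), so that a difference of 1 is a doubling of signal. They ran from 2.0 to 14.71 over the series, 28.4% of the 45037 probe sets lay over 6 in at least 3 arrays, and values of different probe sets are not amounts of RNA that can be set against each other. A probe set was called where limma gave an unadjusted P under 0.01 and a difference over 0.5, the thresholds of the study's methods. After Benjamini-Hochberg adjustment over all 45037 probe sets, no probe set passed 0.05 in any of the 3 comparisons by limma, with 6657 at an unadjusted P under 0.05 for amoxicillin, 6722 for tylosin and 1335 between the antibiotics. Both antibiotics were compared with the same 3 control arrays. In RNA of whole liver, fewer cells of a type and less RNA per cell cannot be told apart.

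In the named probe sets, all 3 amoxicillin arrays lay above all 3 control arrays for 6 of 6 genes, and so did all 3 tylosin arrays. Such a gap was found at 8.34% of all probe sets with amoxicillin, at 7.01% with tylosin and at 3.76% with all 6 antibiotic arrays. The thresholds of the call were met by 6 named probe sets with amoxicillin (0.993% of all probe sets were called higher), by 5 with tylosin (1.03%) and by 5 with both (0.415%). The genes had been chosen on these contrasts, so nothing is read from the counts. Differences ran from 0.74 to 1.15 with amoxicillin (median 0.89) and from 0.63 to 1.01 with tylosin (median 0.94), against medians of −0.03 and −0.02 over all probe sets. Just inside the thresholds lay Ip6k2 with tylosin, at 0.63 (SE 0.20), and just outside them Tspyl4 with tylosin, at 1.01 (SE 0.34), which was larger but varied more.

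**Figure D1:**
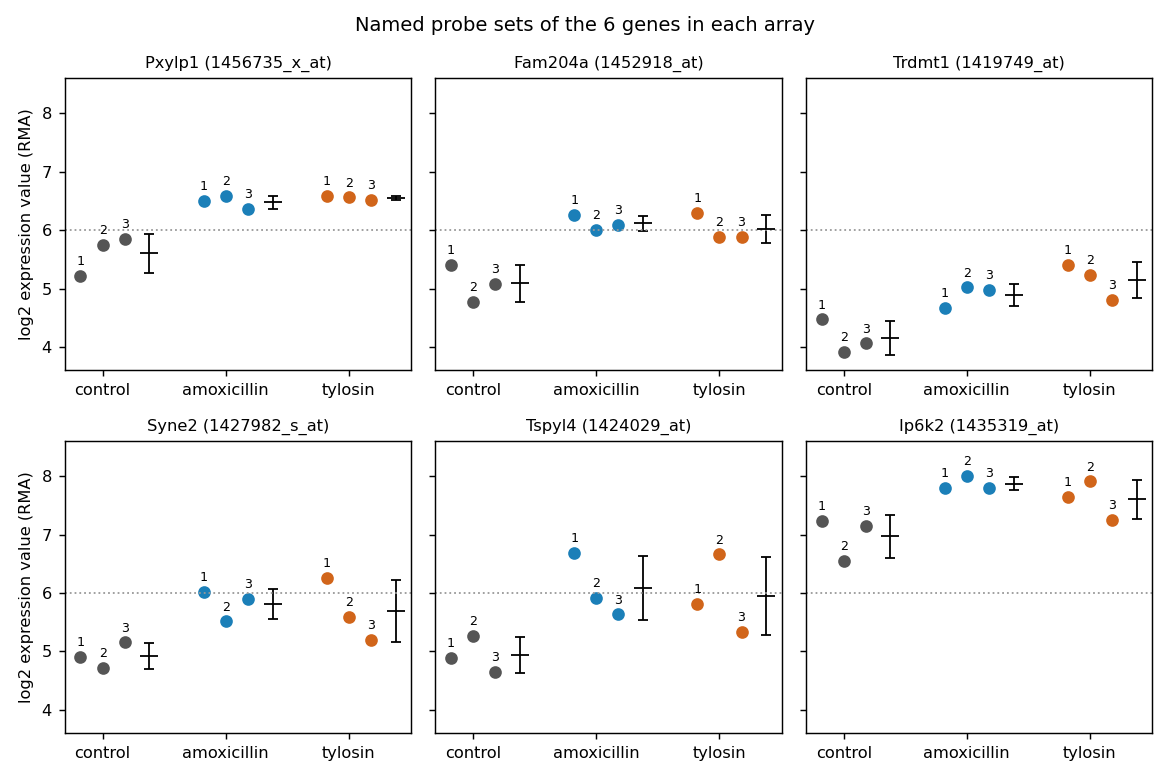
Log2 expression values of the named probe set of each gene, with 1 point per array (numbered by replicate), 3 arrays a group, and a bar for the mean ± SD; the dotted line marks a value of 6. All 6 antibiotic arrays sit above the 3 control arrays in each panel, with narrow groups for Pxylp1 with tylosin (6.52 to 6.58) and wide ones for Tspyl4 (5.33 to 6.66 with tylosin).

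Pxylp1, the xylose phosphatase, was higher by nearly the same amount with both antibiotics at 1456735_x_at. Its values were 5.22, 5.74 and 5.85 in control mice, 6.50, 6.59 and 6.37 after amoxicillin and 6.58, 6.56 and 6.52 after tylosin. The lowest antibiotic array stood 0.51 above the highest control array, and the antibiotic arrays varied less than the control arrays. Means were 5.60 ± 0.33 (SD, n = 3) in control mice, 6.48 ± 0.11 after amoxicillin and 6.55 ± 0.03 after tylosin. The difference from control was 0.88 (SE 0.15, 1.84-fold) with amoxicillin and 0.95 (SE 0.15, 1.93-fold) with tylosin. Both met the thresholds whichever of the 9 arrays was left out, at 0.69 to 1.0 and 0.76 to 1.07.

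The other probe sets of Pxylp1 did not show a difference of that size. At 1429390_at, values were 5.01, 5.39 and 5.43 in control mice, 5.56, 5.43 and 5.40 after amoxicillin and 5.60, 5.80 and 5.75 after tylosin. The tylosin arrays all lay above the control arrays, by at least 0.17, whereas the amoxicillin arrays overlapped them. The difference was 0.44 (SE 0.12) with tylosin, the largest at any of the 10 other probe sets, and 0.19 (SE 0.12) with amoxicillin. With tylosin it met the thresholds in 3 of the 9 fits without 1 array, though not with all arrays. At 1429391_at, with values from 2.80 to 3.37 in all 9 arrays, the differences were 0.12 with amoxicillin and −0.08 with tylosin.

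Fam204a also differed at 1 probe set and not at the others. At 1452918_at, values were 5.41, 4.77 and 5.08 in control mice, 6.26, 6.01 and 6.09 after amoxicillin and 6.30, 5.88 and 5.88 after tylosin. The antibiotic arrays were clear of the control arrays by at least 0.47. The means of 5.09 ± 0.32, 6.12 ± 0.13 and 6.02 ± 0.24 (SD, n = 3 each) gave differences of 1.03 (SE 0.17, 2.05-fold) with amoxicillin and 0.93 (SE 0.17, 1.91-fold) with tylosin. Both met the thresholds in all 9 fits that left out 1 array, at 0.88 to 1.19 and 0.78 to 1.09. Its other probe sets stayed low in all 9 arrays, 1444209_at at 2.46 to 2.65 and 1444218_at at 3.20 to 3.84. Their differences were −0.09 and 0.13 with amoxicillin and −0.08 and −0.06 with tylosin.

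Trdmt1, the transfer RNA methyltransferase, was measured at a low level throughout, under 6 in all 9 arrays. At 1419749_at, values were 4.47, 3.92 and 4.06 in control mice, 4.67, 5.02 and 4.98 after amoxicillin and 5.41, 5.24 and 4.80 after tylosin. The groups did not overlap, although amoxicillin array 1 stood only 0.20 above control array 1. Means were 4.15 ± 0.29, 4.89 ± 0.19 and 5.15 ± 0.31 (SD, n = 3 each), and the differences were 0.74 (SE 0.18, 1.67-fold) with amoxicillin and 1.0 (SE 0.18, 2.0-fold) with tylosin. The tylosin difference met the thresholds whichever array was left out, at 0.87 to 1.17. The amoxicillin difference missed them without control array 2 (0.62) or without amoxicillin array 2 (0.67). The other probe set, 1419750_at, ranged from 3.59 to 3.99 over the 9 arrays, with differences of 0.03 and 0.08.

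Syne2, encoding nesprin-2, had its difference at 1427982_s_at, and there the tylosin arrays were widely spread. Values were 4.90, 4.72 and 5.15 in control mice, 6.01, 5.51 and 5.90 after amoxicillin and 6.26, 5.59 and 5.20 after tylosin. Tylosin array 3 stood only 0.05 above the highest control array, against a gap of 0.36 with amoxicillin. Means of 4.92 ± 0.22, 5.81 ± 0.26 and 5.69 ± 0.53 (SD, n = 3 each) gave differences of 0.88 (SE 0.24, 1.85-fold) and 0.76 (SE 0.24, 1.70-fold). The thresholds were met in 5 of the 9 fits without 1 array with amoxicillin and in 3 of 9 with tylosin, where the difference ran from 0.47 without tylosin array 1 to 1.0. With amoxicillin they were missed without control array 1 or 2 or amoxicillin array 1 or 3, and with tylosin without the same arrays or tylosin array 1 or 2. The other 3 probe sets, 1438585_at, 1442285_at and 1444074_at, lay between 2.80 and 3.78 in all arrays, with differences from −0.20 to 0.15.

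Tspyl4, of the nucleosome assembly protein family, had the largest difference with either antibiotic and also the widest spread. At 1424029_at, values were 4.88, 5.26 and 4.64 in control mice, 6.69, 5.91 and 5.63 after amoxicillin and 5.81, 6.66 and 5.33 after tylosin. Amoxicillin array 1 and tylosin array 2 stood above all others, and tylosin array 3 was only 0.08 above control array 2. Means were 4.93 ± 0.31, 6.08 ± 0.55 and 5.94 ± 0.67 (SD, n = 3 each), and the differences were 1.15 (SE 0.34, 2.22-fold) and 1.01 (SE 0.34, 2.02-fold). With amoxicillin the difference ran from 0.84 to 1.37 over the 9 fits without 1 array. The thresholds were met in 5 of the 9 and missed without control array 1 or 3 or amoxicillin array 1 or 2. With tylosin they were not met with all arrays, and were met only without amoxicillin array 1 or tylosin array 3, the latter at 1.31. The other probe set, 1458937_at, ranged from 2.76 to 3.08, with differences of −0.05 and −0.06.

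Ip6k2, the inositol hexakisphosphate kinase, was the only one of the 6 with its named probe set over 6 in all arrays. At 1435319_at, values were 7.23, 6.55 and 7.14 in control mice, 7.80, 8.0 and 7.80 after amoxicillin and 7.65, 7.91 and 7.25 after tylosin. Amoxicillin arrays were clear of the control arrays by 0.57, whereas tylosin array 3 stood 0.02 above control array 1. Means of 6.97 ± 0.37, 7.87 ± 0.11 and 7.60 ± 0.33 (SD, n = 3 each) gave differences of 0.90 (SE 0.20, 1.86-fold) and 0.63 (SE 0.20, 1.55-fold). The amoxicillin difference met the thresholds in all 9 fits without 1 array (0.68 to 1.03). The tylosin difference met them in 2 of 9, those without control array 1 or tylosin array 3, and was 0.42 without control array 2, the lowest control array.

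The other Ip6k2 probe set is the one best placed to show a second measurement of a member, since it was over 6 in 8 of 9 arrays. At 1428373_at, values were 6.24, 5.85 and 6.40 in control mice, 6.27, 6.27 and 6.53 after amoxicillin and 6.17, 6.31 and 6.27 after tylosin. The 3 groups overlapped. The difference was 0.19 (SE 0.14) with amoxicillin and 0.09 (SE 0.14) with tylosin.

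Over the 10 other probe sets, none met the thresholds with either antibiotic by limma, and 0 with amoxicillin and 1 with tylosin had an unadjusted P under 0.05. Over all probe sets, 0.993% and 1.03% were called higher and 14.8% and 14.9% had such a P, so that counts of 0 and 1 among 10 do not set these probe sets apart. Differences ran from −0.20 to 0.19 with amoxicillin (median 0.07, 7 of 10 above 0) and from −0.08 to 0.44 with tylosin (median 0.03, 5 of 10 above 0). At 9 of the 10, all arrays were under 6, so that for 5 of the genes no second probe set over 6 was at hand. The named probe sets of these 5 genes were under 6 in all control arrays too. The control mean was 5.28 at Pxylp1 1429390_at, beside 5.60 at the named probe set. At Trdmt1 1419750_at it was 3.72, beside 4.15 at the named probe set. At 9 of the 10, at least 2 arrays also held exactly the same value, as 60.2% of all probe sets did, against none of the 6 named probe sets.

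**Figure D2:**
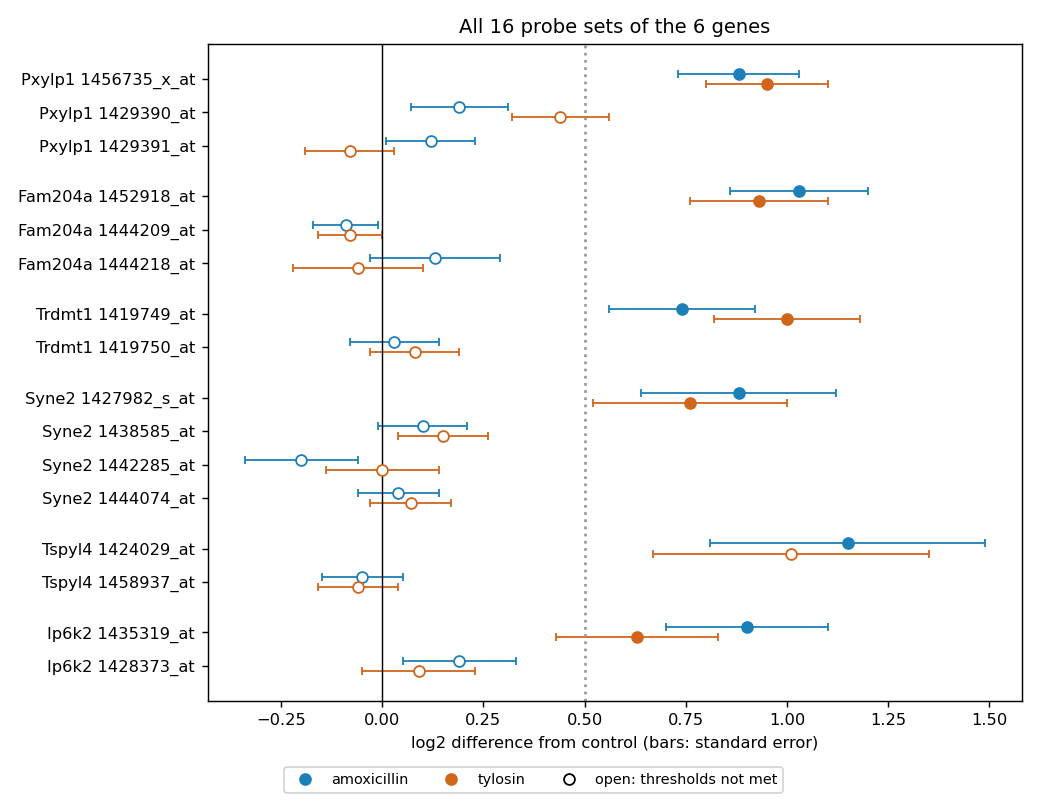
Log2 difference from control (points, with standard error bars) at all 16 probe sets, for amoxicillin and tylosin; filled points met the thresholds of an unadjusted P under 0.01 and a difference over 0.5 (dotted line). The named probe sets sit between 0.63 and 1.15 and the 10 others between −0.20 and 0.44.

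Amoxicillin and tylosin are antibiotics of different classes, a beta-lactam and a macrolide, and were given at different doses. At the named probe sets, tylosin minus amoxicillin was 0.07 for Pxylp1 (95% interval −0.25 to 0.39), −0.10 for Fam204a (−0.47 to 0.27), 0.26 for Trdmt1 (−0.14 to 0.66), −0.12 for Syne2 (−0.65 to 0.40), −0.14 for Tspyl4 (−0.88 to 0.61) and −0.26 for Ip6k2 (−0.70 to 0.17). Choosing the genes for a rise with both antibiotics favours a small difference between them, so these values too are a description. None of the 16 probe sets was called by limma, against 0.0933% of all probe sets called in either direction, and 0 of 16 had an unadjusted P under 0.05; nothing is read from these counts. The closest was Pxylp1 1429390_at, at 0.25 (−0.01 to 0.52, limma adjusted p = 1 over all probe sets). The intervals do not show that the drugs act alike, since that of Tspyl4 reaches −0.88, beside differences from control of 1.15 and 1.01.

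Arrays were not even in these genes. Tylosin array 3 was below the mean of its group for 6 of 6 named probe sets, by 0.33 on average, and tylosin array 1 was above it for 5 of 6. Among amoxicillin arrays, array 1 was above the group mean for 4, array 2 for 3 and array 3 for 2. Pxylp1 varied least between antibiotic arrays, from 6.37 to 6.59, and Tspyl4 most.

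Liver markers were high in all arrays, the 4 measured hepatocyte genes (Alb, Ttr and others) averaging 14.23 to 14.30. The 10 intestinal mucosa genes averaged 4.96 to 5.02 in control mice, 7.07 in amoxicillin array 1 and 6.88 in tylosin array 2, against 4.82 to 5.46 in the other antibiotic arrays. The antibacterial lectin gene Reg3b stood at 10.18 and 9.72 in the same arrays, against 3.07 to 3.15 in control mice. In tylosin array 1 Reg3b stood at 7.75 and the list averaged 5.46. Of the list's other genes only Zg16 (6.07) lay above all control arrays there. Muc2 (3.53), Krt20 (3.37), Vil1, Reg3g and Lgals4 lay within the control range, and Fabp2, Muc13 and Guca2a below it. In that array 5 of 6 named probe sets were above their group mean, and any link to Reg3b was not tested. In amoxicillin array 1 and tylosin array 2 the 6 smooth muscle genes averaged 6.16 and 6.49, against 4.26 to 4.62 in control mice. Amoxicillin array 1 and tylosin array 2 are the arrays in which Tspyl4 was highest, at 6.69 and 6.66, and their part in its difference was not tested beyond leaving them out. Without both arrays, a choice made after seeing the data, the Tspyl4 differences were 0.84 (met the thresholds) and 0.65 (did not). Under the same omission Pxylp1 (0.87 and 0.94), Fam204a (0.96 and 1.0) and Trdmt1 (0.85 and 0.95) met the thresholds with both antibiotics, Ip6k2 with amoxicillin (0.93) but not tylosin (0.48), and Syne2 (0.78 and 0.81) with neither.

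Other cell type markers mostly overlapped between groups. Kupffer cell and macrophage genes averaged 8.42 to 9.28 in control mice, 8.47 to 9.41 with amoxicillin and 8.75 to 9.65 with tylosin, highest in tylosin array 3, where the 6 genes were lowest against their group. The list did not move as one there, with Marco at 10.95 and Adgre1 at 9.59 above all other arrays and Clec4f at 7.50 and Vsig4 at 9.40 below them. Lymphocyte genes averaged 5.10 to 5.40, 5.14 to 5.17 and 5.05 to 5.94, highest in tylosin array 3. Ighm (10.49), Ptprc (8.83), Ms4a1 (4.18) and Cd3g (3.74) were highest there, whereas Cd3e (5.76) lay below all control arrays. Cd8a (4.57) and Cd79a (4.03) were within the control range. Cholangiocyte genes averaged 4.05 to 4.27, 4.12 to 5.22 and 4.09 to 4.84, highest in amoxicillin array 1 and tylosin array 2. In these arrays Krt19 (5.64 and 4.90) and Epcam (7.10 and 6.48) stood above all control arrays. Sox9 in amoxicillin array 1 (4.62) and Krt7 in tylosin array 2 (3.21) lay below all control arrays. Each was within the control range in the other of these arrays. Endothelial genes averaged 7.64 to 7.69, 7.76 to 7.83 and 7.55 to 7.98, so that the amoxicillin arrays lay just above the control arrays. Of these genes only Kdr had such a gap, at 8.07 to 8.27 with amoxicillin against 7.61 to 7.89 in control mice. Pecam1, Stab2 and Clec4g overlapped. Stellate cell genes averaged 7.01 to 7.60, 7.36 to 7.84 and 7.42 to 7.49. The 3 measured pancreas genes averaged 3.71 to 3.96 over all arrays, and the 1 measured adipocyte gene was at 2.46 to 2.99. The 3′ minus 5′ difference of Actb, a measure of RNA integrity, was 1.29 to 1.40 in control mice, 1.39 to 1.57 with amoxicillin and 1.21 to 1.73 with tylosin, lowest in tylosin array 3 and highest in tylosin array 2, and the part of RNA integrity or of any of these cell types in the differences was not tested.

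**Figure D3:**
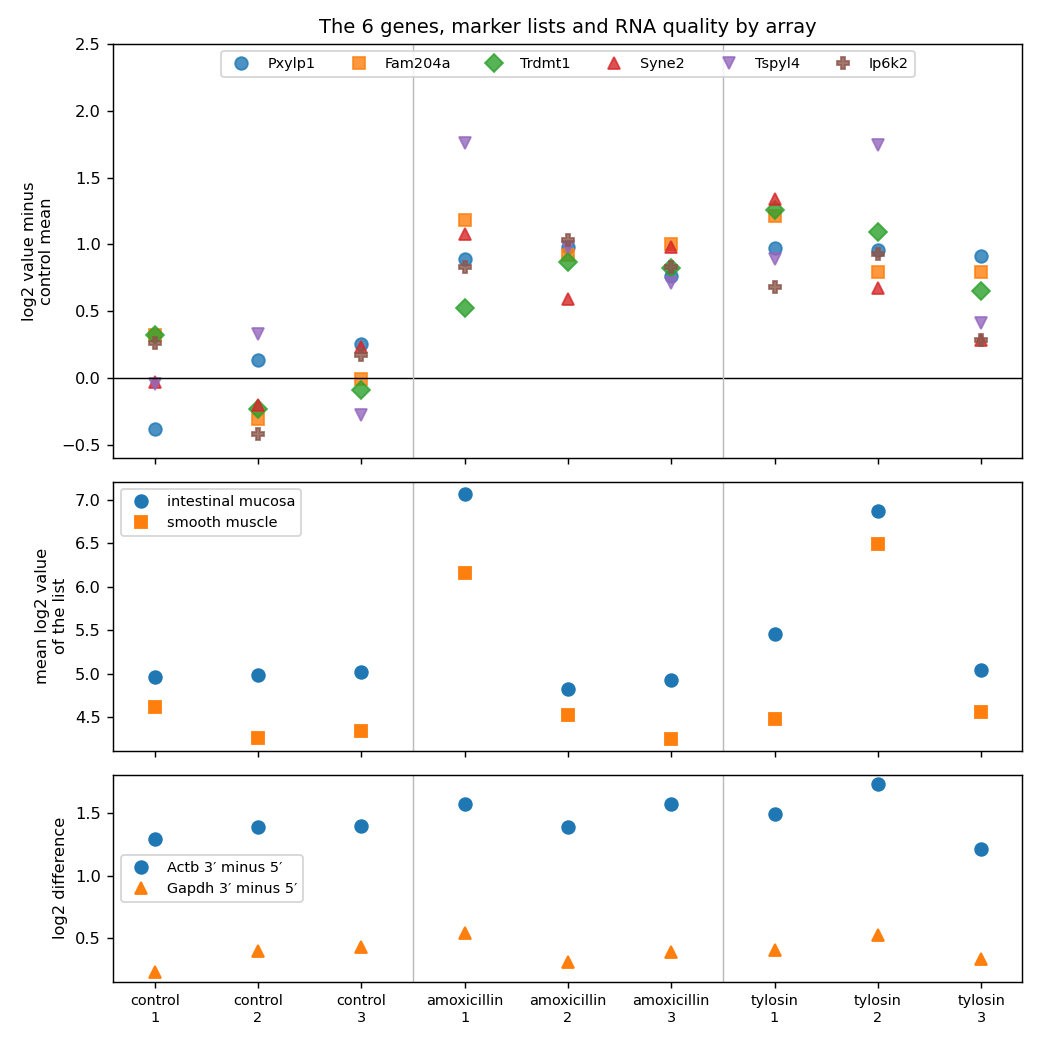
Top, the log2 value of each named probe set minus its control mean, by array; middle, the mean log2 value of the intestinal mucosa and smooth muscle marker lists; bottom, the 3′ minus 5′ log2 difference of Actb and Gapdh. Tspyl4 is highest in amoxicillin array 1 and tylosin array 2, where the intestinal list reaches 7.07 and 6.88, and all 6 genes are below their group mean in tylosin array 3.

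Of 68 genes in lists of related function, 64 were measured, 4 were called with amoxicillin (6.25%, against 2.48% of all genes) and 5 with tylosin (7.81%, against 2.67%), all higher. The median difference at the brightest probe set was 0.08 and 0.06, against −0.03 and −0.01 over all genes. No adjusted p of these genes was under 0.05, and the lists were not tested as sets. Because the lists were drawn up with earlier results of these data known, nothing is read from the shares. The glycosaminoglycan list of Pxylp1 had 14 genes measured and none called with amoxicillin. Fam20b, the kinase that opposes Pxylp1, differed by 0.08 and 0.06 at its brightest probe set. At a dimmer probe set, under 6 in all arrays, it differed by 0.40 and 0.49 (SE 0.17) and was not called. With tylosin that probe set met the thresholds in 1 of the 9 fits without 1 array. At its dimmest probe set the differences were −0.0 and 0.08. Xylt2, which starts the linker, differed by 0.13 with each antibiotic. Ugdh, which makes the glucuronic acid donor of the chains, was called with tylosin, from 9.20 ± 0.22 to 9.78 ± 0.28 (SD, n = 3), a difference of 0.58 (SE 0.15, limma adjusted p = 0.19) that was lost in 4 of the 9 fits without 1 array.

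Among 11 genes of cytosine-5 methylation and queuosine insertion, listed for Trdmt1, 2 were called with each antibiotic (18.2%, against 2.48% and 2.67% of all genes). In a list this short nothing is read from the count. Nsun3, a mitochondrial transfer RNA methyltransferase, was at 6.18 ± 0.23 in control mice, 6.79 ± 0.18 after amoxicillin and 6.76 ± 0.13 after tylosin (SD, n = 3). Its differences of 0.62 and 0.59 (SE 0.13, limma adjusted p = 0.20 and 0.18) were lost only without control array 3, and its other 3 probe sets differed by −0.14 to 0.03. The de novo DNA methyltransferase Dnmt3a was called at a dim probe set (0.55 and 0.50, limma adjusted p = 0.20 and 0.19) but differed by 0.06 and 0.09 at its brightest. The amoxicillin call was lost in 1 and the tylosin call in 4 of the 9 fits without 1 array. Dnmt1, the maintenance methyltransferase (0.53 and 0.47), and Qtrt2, a subunit of the queuosine-inserting enzyme (0.44 and 0.58), did not meet the thresholds.

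Syne1, which encodes nesprin-1 and is the paralogue of Syne2, was called with both antibiotics. Its brightest probe set was at 6.71 ± 0.12 in control mice, 7.42 ± 0.05 after amoxicillin and 7.24 ± 0.14 after tylosin (SD, n = 3), with all 6 antibiotic arrays above the control arrays. The differences were 0.71 (SE 0.10, limma adjusted p = 0.17) and 0.53 (SE 0.10, limma adjusted p = 0.18), the first kept in all 9 fits without 1 array and the second in 7. Its other 2 probe sets differed by 0.19 or less. Of the 14 LINC and lamina genes, Tmpo, a lamina-binding protein gene, was called besides Syne1, at a probe set other than its brightest. There it was called with tylosin (0.50, limma adjusted p = 0.18) and not with amoxicillin (0.29), and its call was lost in 3 of the 9 fits without 1 array. At its brightest probe set Tmpo differed by 0.49 with each antibiotic (SE 0.16) and was not called. The list's calls were 7.14% with amoxicillin and 14.3% with tylosin, against 2.48% and 2.67% of all genes, and nothing is read from so short a list. The SUN partners of nesprins were not called, Sun1 at 0.05 and −0.19 and Sun2 at 0.15 and 0.35.

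In the families of Tspyl4 and Ip6k2, 0 of 10 and 1 of 15 genes (6.67%) were called with amoxicillin, and 0 with tylosin. Over all genes 2.48% and 2.67% were called, and in lists this short nothing is read from the counts. None of the 10 nucleosome assembly protein genes was called, and Tspyl1, next to Tspyl4 on the chromosome, differed by 0.31 and 0.07. Of 15 measured genes of inositol phosphate metabolism, Ppip5k2, the other kind of inositol pyrophosphate kinase, was called with amoxicillin, from 7.43 ± 0.29 to 8.0 ± 0.10 (SD, n = 3), a difference of 0.57 (SE 0.16, limma adjusted p = 0.23) that was lost in 4 of the 9 fits without 1 array. With tylosin it differed by 0.35 and was not called. The paralogues Ip6k1 (−0.11 and 0.00) and Ip6k3 (−0.15 and −0.07) were not called.

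The 2 measured genes on each side of each member made 24 neighbours, of which 1 was called with each antibiotic (4.17%). With 2.48% and 2.67% of all genes called, 1 of 24 is near the share over all genes. It was Rab11fip2, a Rab11 effector of membrane recycling that lies 253.5 kb from Fam204a. Its brightest probe set was at 6.13 ± 0.18 in control mice, 6.90 ± 0.13 after amoxicillin and 6.75 ± 0.41 after tylosin (SD, n = 3). The differences were 0.77 (SE 0.18, limma adjusted p = 0.20), kept in all 9 fits without 1 array, and 0.62 (SE 0.18, limma adjusted p = 0.21), lost in 4 of 9. The nearest neighbours did not differ in that way, Nckipsd, 2.0 kb from Ip6k2, at −0.10 and −0.06 and Nt5dc1, 2.3 kb from Tspyl4, at 0.13 and 0.08. The median difference of the 24 was 0.00 with amoxicillin and 0.04 with tylosin.

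**Figure D4:**
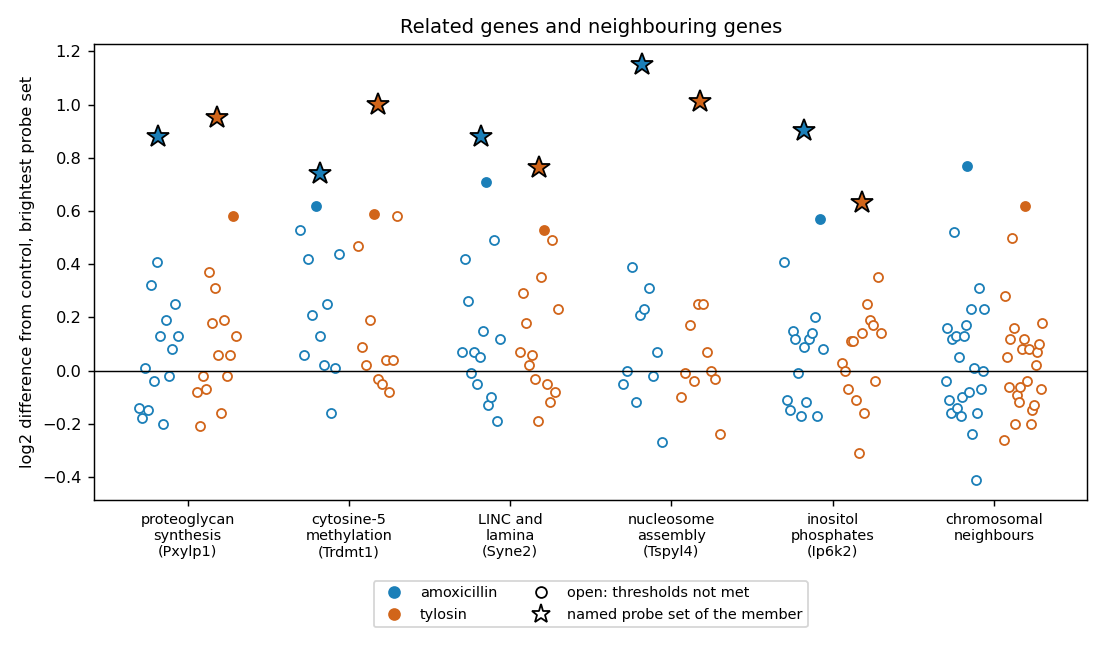
Log2 difference from control at the brightest probe set of each related gene, by list, and of each chromosomal neighbour; stars mark the named probe set of the gene to which the list belongs, and filled points met the thresholds. The stars lie above the related genes of their list for both antibiotics, a place that follows from choosing these probe sets for their rise. Filled points are Ugdh, Nsun3, Syne1, Ppip5k2 and, among neighbours, Rab11fip2.

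Over the 9 arrays, the named probe sets of Trdmt1 and Fam204a were the most alike of the 6, with a mean absolute difference of 0.17 after each was centred on its own mean, followed by Syne2 and Fam204a at 0.20. Tspyl4 was least like the others, at 0.39 to 0.45. Among 11274 probe sets of other genes with a mean over 6, the most alike were Sall1 and Ankhd1 for Pxylp1 (both 0.16), Mef2a and Tnrc6a for Fam204a (both 0.14), Prpf39 (0.13) and Tnrc6a (0.14) for Trdmt1, Tmx3 (0.11) and Son (0.16) for Syne2, and Tob2 (0.13) and Snrnp40 (0.17) for Ip6k2. For Tspyl4 the nearest, Slc12a2 (0.21) and Nrep (0.28), were farther off. Likeness over 9 arrays that share the same group differences is a description and says nothing of shared function.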

How the data were processed

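Liver RNA of 9 arrays (3 each for control, amoxicillin and tylosin, grouped by their titles) was examined. The authors deposited log2 expression values made by robust multi-array averaging in the affy package, versions not given in the sources used here. This evens out the distributions of the arrays, so that a shift of most genes would not be seen. No depth applies to arrays, and their number limits precision. Of 45101 probe sets, 64 manufacturer controls were left out; of the remaining 45037, 34945 had 1 gene symbol, 932 several and 9160 none. Symbols were updated through RefSeq (GRCm38.p6).

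Values were fitted with limma 3.58.1 in R 4.3.3 (lmFit and eBayes) over all probe sets and groups, with no covariate. Calls needed P under 0.01 before adjustment, with a log2 difference over 0.5 in either direction. P-values were adjusted by Benjamini-Hochberg over all 45037 probe sets. The fit was tested on simulated data. Alternatives were other thresholds, a filter on dim probe sets, 2 normalizations, another variance model, array weights, only the groups compared, manufacturer controls kept, a replicate block and each array left out.

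The genes, the lists of related genes and the marker lists were chosen with earlier results of these data known. Named were all probe sets of the 6 genes, related and neighbouring genes that were called, the closest family members, and the 2 genes most alike to each member over the arrays. Nckipsd, Nt5dc1, Dse, Vim, Dnmt1 and Qtrt2 were named after their values were seen. A gene's brightest probe set was the one with the highest mean.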

Additional observations from a re-analysis of the deposited data

How the results depend on the processing

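The 12 differences of the named probe sets took 234 values under the alternatives, from 0.42 to 1.37, 57 of them with a changed call. Their sign is no sign of stability, since the probe sets were chosen for it and most alternatives leave the difference itself as it was; Trdmt1, Syne2 and Tspyl4 gave no value under the filter on dim probe sets. Adjusted p left 0 calls of members (from 6, 5 and 5 with amoxicillin, tylosin and both), of related genes (from 4 and 5) and of neighbours (from 1 and 1). A log2 difference over 1 left 2, 0 and 0 members, 0 and 0 related genes and 0 and 0 neighbours. Over all probe sets it left 0.0333% called higher with amoxicillin and 0.0622% with tylosin. Testing only probe sets over 6 in at least 3 arrays left 3, 2 and 2 members: only Pxylp1, Fam204a and Ip6k2 passed it, and Ip6k2 lost its tylosin call in the refit (0.63). Pxylp1 and Fam204a, under 6 in all control arrays, passed it through antibiotic arrays alone (6 and 4 over 6), so that their calls there say nothing of stability. Under that filter 1.44% of the probe sets tested were called higher with amoxicillin and 1.72% with tylosin. Quantile normalization gave 3 members with tylosin and 3 with both, 1 related gene and 0 neighbours with tylosin. The share of all probe sets called higher with tylosin was 0.775% after that normalization. Fitting only the groups compared gave 3 members with tylosin, 3 with both and 0 neighbours with tylosin, with 0.879% of all probe sets called higher. Median centring gave 2 neighbours with amoxicillin, with 1.56% of all probe sets called higher. Without the 2 arrays with intestinal transcripts, chosen after seeing the data, there were 3 members with tylosin, 3 with both, 2 related genes with tylosin and 0 neighbours with either. Of all probe sets, 0.555% were then called higher with amoxicillin and 0.773% with tylosin. Leaving out 1 array gave 4 to 6 members with amoxicillin, 3 to 6 with tylosin (3 without amoxicillin array 3 or tylosin array 2) and 2 to 6 with both (2 without control array 2), 3 to 7 and 2 to 10 related genes and 1 to 2 and 0 to 2 neighbours. In these fits 0.635% to 1.47% of all probe sets were called higher with amoxicillin and 0.746% to 2.21% with tylosin. The related count with tylosin was 10 without tylosin array 3, 3 without tylosin array 1 and 2 without tylosin array 2 or control array 3, while the share of all probe sets called higher went from 1.03% to 2.21%, 0.746%, 0.799% and 1.09% in that order, and that with amoxicillin 7 without control array 2. Calls of tylosin against amoxicillin stayed at 0 throughout. Of these changes, the cause was not tested.

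Replicate numbers did not pair the arrays: 2 of 9 same-numbered pairs correlated over 0.1 (−0.245 to 0.151), and 3 of 9 arrays were closest to their own number. With the number as a block, 6, 5 and 5 members were called, with Tspyl4 gained (1.01) and Ip6k2 lost (0.63) with tylosin, and 4 and 6 related genes, 1 and 1 neighbours and 0 members between the drugs. The block left 1.14% of all probe sets called higher with amoxicillin and 1.15% with tylosin. Array weights called Tspyl4 with tylosin (1.16), and a trended, robust variance lost it with amoxicillin (1.15). The other probe sets of 5 of the 6 genes were all under 6, and the part of low signal in their smaller differences was not tested. At the brighter other probe set of Ip6k2 the differences were 0.19 with amoxicillin and 0.09 with tylosin.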
